A study of Rattus norvegicus with 64 samples.

Results

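The surface markers by which mesenchymal stromal cells are recognized were followed at the RNA level in the reconstructed urinary bladder of rats. The members were 10 genes, Thy1, Cd44, Itgb1, Nt5e, Eng, Cd34, Pdgfra, Pdgfrb, Mcam and Ptprc. They were found by matching the RefSeq accession of each non-control probe, without its version, to these symbols in the RefSeq table of the rat. All 10 genes had a probe. They made up 10 of the 15715 genes that could be named on the array and had 15 of its 30367 gene probes. The brightest probe, the one with the highest mean over all arrays, was used for Cd44 (4 probes), Itgb1 (2 probes) and Ptprc (2 probes), and the other 7 genes had 1 probe each.

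Male Wistar rats underwent hemicystectomy, and the bladder was augmented with bladder acellular matrix (BAM), which is bladder wall freed of its cells, either unseeded or seeded with adipose tissue-derived stromal cells (ASCs, named ADSCs in the labels). The ASCs came from retroperitoneal fat of 10-week-old male Wistar rats and were used at passage 3. Total RNA of the reconstructed wall was hybridized on 1-color Agilent arrays at 7, 30, 90 and 180 days after surgery, with 8 arrays of different rats in each of the 8 groups and 64 arrays in all. Hemicystectomy and BAM were common to all 8 groups, so the unseeded groups are not intact bladder. The seeded cells were a cultured population that carried no label on the array, and a transcript of the host cannot be told apart from a transcript of an ASC. In whole tissue, fewer cells of a type and less RNA per cell cannot be told apart either.

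Mesenchymal stromal cells have no marker of their own and are recognized by a combination. CD90 (Thy1), CD44 (Cd44) and CD29 (Itgb1) are carried by cultured ASCs and were among the antigens that the study examined by flow cytometry, together with CD34 and CD45. CD73 (Nt5e) and CD105 (Eng) complete the common definition of these cells, while CD45 (Ptprc), the tyrosine phosphatase of all nucleated blood cells, has to be absent. Each of the positive markers is also made by host cells. Thy1, Pdgfra and Nt5e are found in fibroblasts, Pdgfrb and Mcam in the mural cells around vessels, Mcam also in smooth muscle and endothelium, Eng and Cd34 in endothelium, Cd44 in leukocytes and activated epithelium, and Itgb1 in nearly all cells.

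The values below are log2 levels, in which the array's 75th percentile has been subtracted from the log2 processed signal of a probe. Levels of different genes are not compared, since each probe has its own brightness. A difference was called when limma, fitted over all 30367 probes and 64 arrays, gave a fold change over 1.5 together with a p below 0.01 after Benjamini-Hochberg adjustment. The share of gene spots well above background was 73.3% to 95.6% on the arrays of 7 and 30 days, and it was lower, 35.5% to 64.6%, on the later ones. All 10 markers were well above background on every array at 7 and 30 days. At 90 and 180 days Nt5e was the exception in both grafts, and Cd34 and Eng missed it on 1 or 2 arrays of BAM. Each group lay on its own slide, so slide and group cannot be told apart, and the early slides (7 and 30 days) and the late slides (90 and 180 days) had different scan dates. The replicates were different rats, and their number limits the precision.

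**Figure D1:**
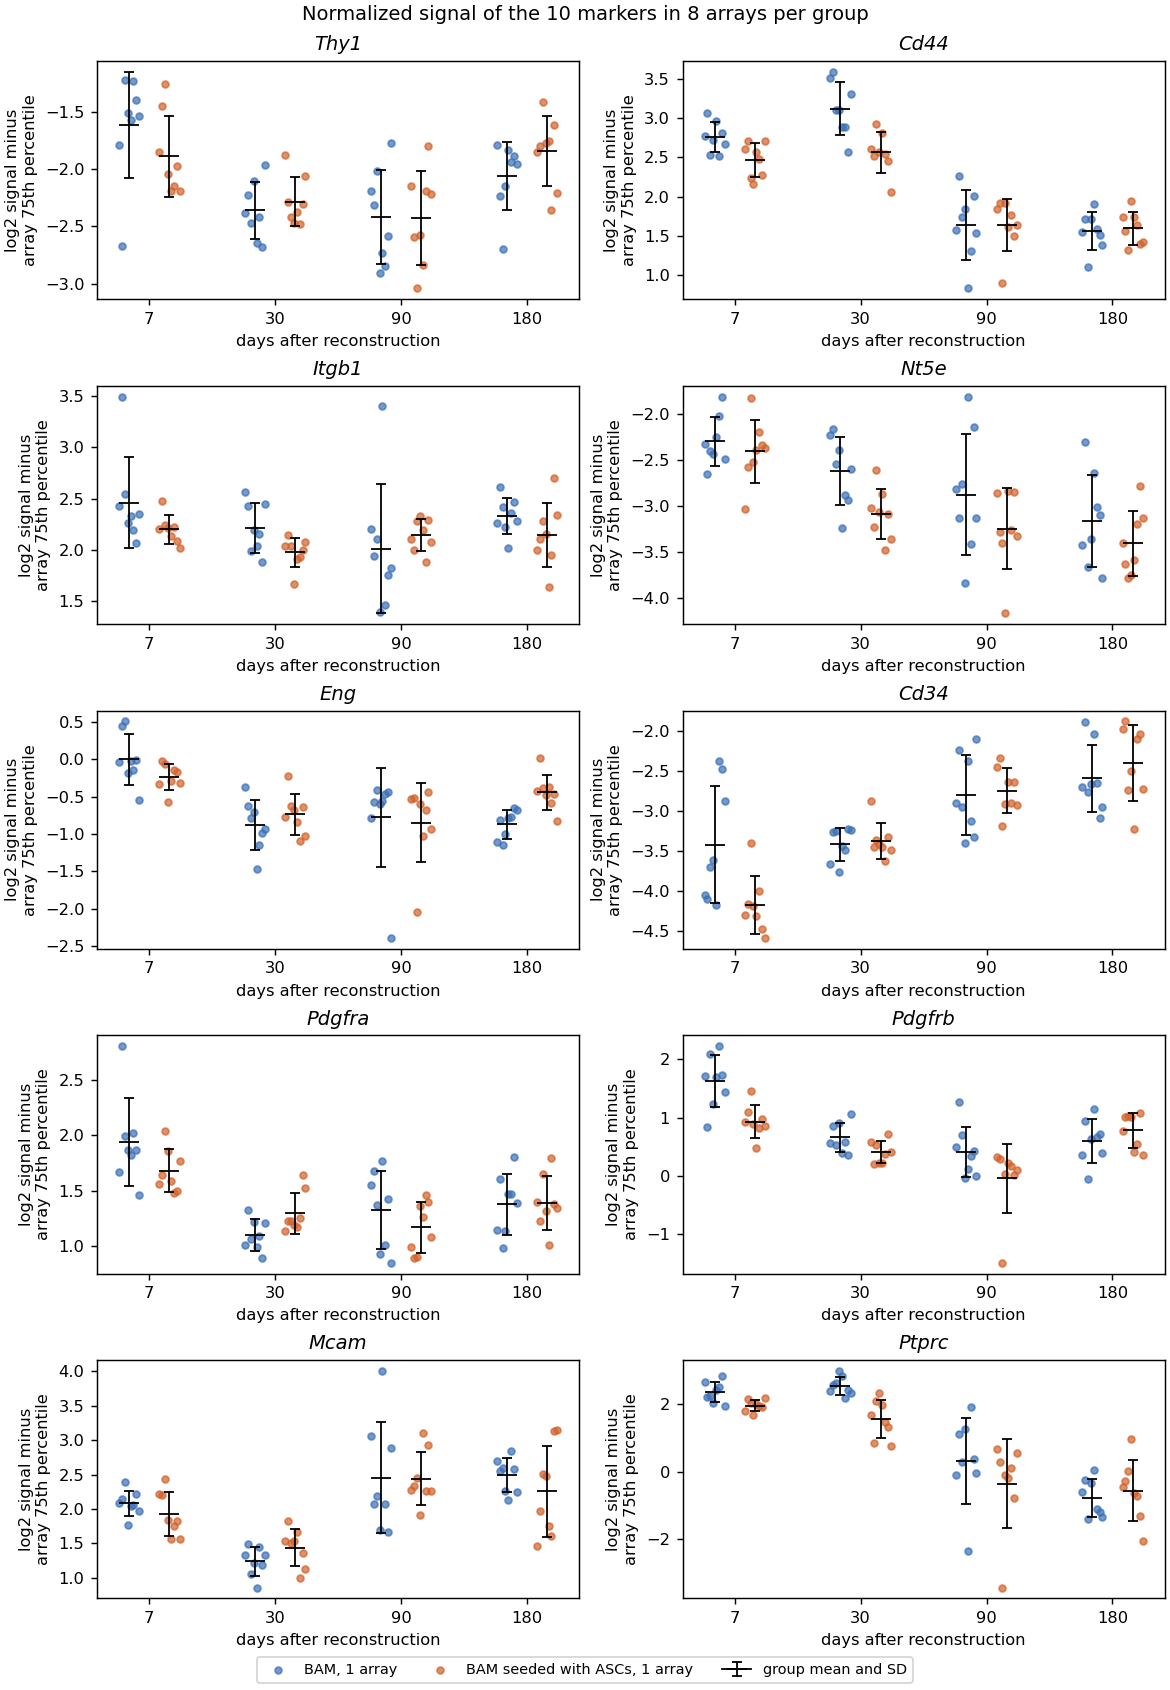
Log2 level of the brightest probe of each marker (y axis, log2 scale, relative to the array's 75th percentile) at 4 days after reconstruction, with 1 point per array, 8 arrays per group, and the group mean with its SD in black. Cd34 and Pdgfrb of the seeded grafts lie lower at 7 days, Ptprc and Cd44 drop from 30 to 90 days in both grafts, and in every panel the 2 grafts of a day overlap.

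The first question was whether grafts that had received ASCs differed in the markers. At 7 days 0 of the 10 markers were higher and 2, Cd34 and Pdgfrb, were lower in bladders reconstructed using seeded BAM, where 7.73% of all probes were called and 5.62% were called lower. All 10 differences were below 0, with a median of -0.27 on the log2 scale, while the median over all probes was -0.16. Above the latter lay 2 of the 10. 0 of the 10 markers had groups that did not overlap, against 4.46% of all probes.

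Cd34 encodes a sialomucin of endothelium, of hematopoietic progenitors and of stromal cells fresh from fat. Its level in BAM at 7 days ranged from -4.17 to -2.37 with a median of -3.65, and in seeded BAM from -4.59 to -3.40 with a median of -4.25. Replicates 6, 7 and 8 of BAM were highest, at -2.37, -2.48 and -2.88, while the other 5 arrays lay at -3.61 or lower and overlapped with those of seeded BAM. Before scaling, the processed signal of Cd34 was low, from 81.5 to 161 in BAM and from 56.5 to 122 in seeded BAM. The 75th percentile of these arrays ranged from 834 to 1587 in BAM and from 1229 to 1602 in seeded BAM. Its part in the spread of Cd34 was not tested. The difference was -0.76 (standard error 0.215, limma adjusted p = 0.00854), or 1.69-fold lower. Relative to the median of all probes it was -0.60. The call did not hold with the 16 arrays of the day alone (limma adjusted p = 0.0662), with the scan dates fitted apart or with a replicate block (limma adjusted p = 0.0113 each), or in 10 of the 16 fits that left out 1 array of the day. Without BAM replicate 6 the difference was -0.61 (limma adjusted p = 0.0421), and without BAM replicate 7 it was -0.63 (limma adjusted p = 0.0422).

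Pdgfrb, the receptor by which PDGF-B recruits pericytes, was the other marker called lower at 7 days. Its level ranged from 0.84 to 2.23 with a median of 1.71 in BAM and from 0.47 to 1.45 with a median of 0.91 in seeded BAM. BAM replicate 2 was the lowest array of its group, at 0.84, and the highest array of seeded BAM was replicate 3 at 1.45. BAM replicate 6, the highest of its group in Cd34, was also the highest in Pdgfrb, at 2.23. The difference was -0.69 (standard error 0.189, limma adjusted p = 0.00633), or 1.61-fold lower, and -0.53 relative to the median of all probes. It was also called in 6 of the 16 fits without 1 array of the day and ranged from -0.80 to -0.60 over them. Neither Cd34 nor Pdgfrb passed the adjusted p after normexp background correction, with the percentile taken over detected probes or after quantile normalization, where the adjusted p lay between 0.0133 and 0.0487 with the same sign.

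The 3 markers that define the ASCs in culture differed less at 7 days. For Thy1, a GPI-anchored glycoprotein, the difference was -0.27 with a 95% confidence interval of -0.62 to 0.08 (limma adjusted p = 0.314). For Cd44, the hyaluronan receptor, it was -0.29 with an interval of -0.58 to 0.0038 (limma adjusted p = 0.178), and its other 3 probes gave 0.22, -0.14 and 0.071. Itgb1, the shared beta subunit of many matrix-binding integrins, gave -0.26 with an interval of -0.58 to 0.07 (limma adjusted p = 0.301) with its brightest probe and 0.49 (limma adjusted p = 0.055) with its other probe, so that its sign depended on the probe. The intervals were wider for Nt5e (-0.11, from -0.52 to 0.31), the enzyme that makes adenosine from AMP, and for Eng (-0.24, from -0.62 to 0.14), a co-receptor of the TGF-beta family. The intervals of Pdgfra (-0.53 to 0.01), the PDGF receptor of fibroblasts, of Mcam (-0.60 to 0.28), an adhesion molecule, and of Ptprc (-1.18 to 0.39) also included 0.

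**Figure D2:**
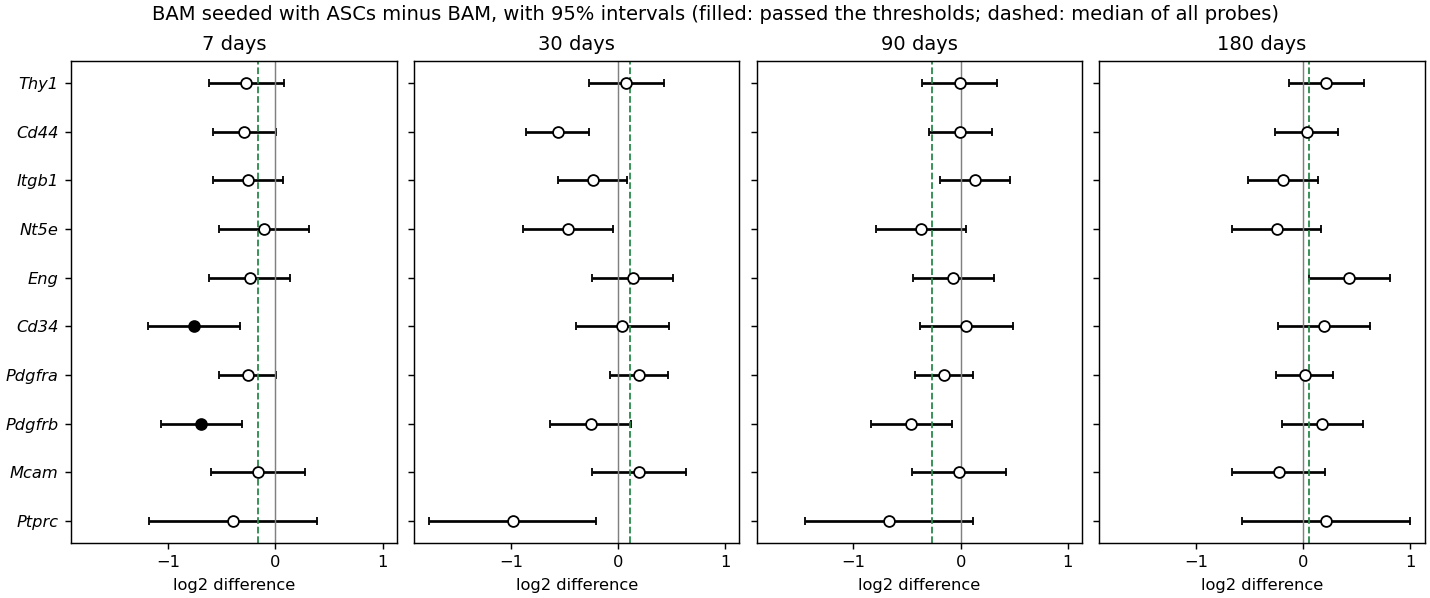
Difference in log2 level between seeded BAM and BAM (x axis) for each marker (y axis) at each day, with the 95% confidence interval of the limma fit. Filled points passed both thresholds, which holds for Cd34 and Pdgfrb at 7 days, and the dashed line is the median over all probes of that day, -0.16, 0.11, -0.27 and 0.06 at 7, 30, 90 and 180 days.

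The markers of other cell types at 7 days did not move alike. Of 12 urothelial genes on the array, 10 were higher in seeded BAM with a list median of 2.06, among them Upk2, Epcam and Upk1a (2.87, 2.60 and 2.36, limma adjusted p = 2.21e-04, 9.56e-05 and 8.78e-05). Of 12 endothelial genes 3 were lower, Vwf (-0.997), Kdr (-0.68) and Flt1 (-0.65), and the list median was -0.57. The log2 of the summed signal of the endothelial list lay between 5.09 and 5.83 in BAM and between 4.71 and 5.04 in seeded BAM. For the urothelial list it lay between 1.56 and 7.14 in BAM and between 6.06 and 7.66 in seeded BAM. The 8 mural genes had a median of -0.43 with 0 calls. Of 14 fibroblast genes, Prrx1, a transcription factor of mesenchyme, was lower (-0.71). Among 17 other surface molecules of stromal cells, the tetraspanin Cd9 was higher (0.75). Of the 9 adipocyte genes Pparg was higher (0.93), while the list median was -0.36. The part of these cell types in the lower Cd34 and Pdgfrb was not tested.

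Partners of the markers gave few calls at 7 days. In the adenosine pathway of Nt5e, 2 of 8 genes were lower, the upstream ectoenzyme Entpd1 (-0.73, limma adjusted p = 0.00211) and the adenosine receptor Adora2a (-1.06, limma adjusted p = 0.00238). There were 0 calls among the 9 genes of hyaluronan and CD44, the 7 integrin alpha subunits that pair with Itgb1, the 5 Thy1 partners, the 13 genes of Eng and the TGF-beta family, the 5 genes of PDGF and its activation and the 9 partners of Cd34, Mcam and Ptprc.

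At 30 days 0 of the 10 markers were called, where 1.67% of all probes were. An unadjusted p of 0.05 was passed by 3, and the share of all probes passing it was not counted. The median difference was -0.10 against 0.11 for all probes. Ptprc was lower by the largest amount. Its level ranged from 2.18 to 2.99 with a median of 2.49 in BAM and from 0.76 to 2.32 with a median of 1.57 in seeded BAM, with an overlap between 2.18 and 2.32. The difference was -0.98 with an interval of -1.77 to -0.20 (limma adjusted p = 0.101). The fit over all arrays gives each gene 1 spread, and the SD of Ptprc was 0.269 and 0.570 in these groups against 1.28 and 1.33 in BAM and seeded BAM at 90 days. When the arrays of 7 and 30 days were fitted apart from the later ones, Ptprc passed both thresholds at 30 days (limma adjusted p = 8.28e-04), and on the 16 arrays of the day alone the adjusted p was 0.0128.

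Cd44 was the other marker near the thresholds at 30 days. It ranged from 2.57 to 3.59 with a median of 3.11 in BAM and from 2.06 to 2.93 with a median of 2.55 in seeded BAM. The difference of -0.56 (standard error 0.147, limma adjusted p = 0.0125) was a 1.47-fold decrease and missed both thresholds. Without seeded BAM replicate 3 (-0.61), seeded BAM replicate 5 (-0.60) or BAM replicate 7 (-0.64) it passed both. The lower signal was seen with 1 of the 4 probes of Cd44, since the other 3 gave -0.10, -0.07 and 0.09. Nt5e differed by -0.47 with an interval of -0.88 to -0.05 (limma adjusted p = 0.144). For the remaining 7 markers the difference lay between -0.25 and 0.20.

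Of 19 leukocyte genes, Cd48 was called lower at 30 days (-0.63, limma adjusted p = 0.00602), and the list median was -0.89. The log2 of the summed signal of this list lay between 7.08 and 7.59 in BAM and between 5.89 and 7.12 in seeded BAM. Icam1, an adhesion receptor for leukocytes, was lower (-0.85) among the other surface molecules, and Vim, the intermediate filament of mesenchymal cells, was lower (-0.92) among the fibroblast genes. Among the partners, Itga6, the laminin-binding alpha subunit, was higher (0.91, limma adjusted p = 0.00403). Has3, a hyaluronan synthase, was also called higher (1.92), but was well above background on 6 of 8 arrays of seeded BAM and 2 of 8 of BAM.

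At 90 days 0 of the 10 markers were called, where 12.5% of all probes were. The median difference was -0.04, while that of all probes was -0.27, and the local background was 345 in BAM and 108 in seeded BAM. With the main scaling, 7 of the 10 markers lay above this median of all probes. The sign of that reference depended on the processing. Excluding dim probes moved it to 0.065, quantile scaling to 0.023 and the normexp background step to 0.078. It was -0.22 with a percentile over detected probes, and -0.27 with the series matrix or with outlier spots kept. The markers were not recounted against these other values, so their place relative to all probes was left undecided. Pdgfrb had the smallest adjusted p, with levels between -0.03 and 1.28 (median 0.39) in BAM and between -1.49 and 0.33 (median 0.13) in seeded BAM. Its difference was -0.46 with an interval of -0.84 to -0.08 (limma adjusted p = 0.0514). Seeded BAM replicate 3, at -1.49, lay far below the other 7 arrays of its group, which were at 0.011 or higher, and without it the difference was -0.25 (limma adjusted p = 0.224). Ptprc differed by -0.67 with an interval from -1.45 to 0.12, by -1.04 without BAM replicate 5 and by -0.23 without seeded BAM replicate 3. Thy1, Cd44 and Mcam differed by -0.0075, -0.0020 and -0.011, and their sign changed with the scaling. One of the other Cd44 probes was higher by 0.51 (limma adjusted p = 0.016). Nt5e was well above background on 4 of 8 arrays of BAM and 7 of 8 of seeded BAM and differed by -0.37.

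Other lists did show calls at 90 days. In smooth muscle Actg2, Myh11 and Tagln were higher in seeded BAM (1.00, 1.09 and 1.00), 3 of 10 genes on the array. Of 14 fibroblast genes 3 were higher, namely Col1a2, Dcn and Col1a1, which encode matrix proteins (1.02, 0.76 and 0.75). The list median was -0.03, against 0.60 for smooth muscle. The mean 75th percentile of the arrays was 2454 in BAM and 1104 in seeded BAM. Saturated spots numbered 1088.5 and 480.6 per array on average. The part of scaling and saturation in the higher smooth muscle and matrix genes was not tested. The endothelial cadherin Cdh5 (-0.87) and the T cell coreceptor Cd4 (-1.01) were lower, and Cd4 was well above background on 6 of 8 arrays of each graft. Among the partners of the markers, the BMP receptor Bmpr2 (0.92) and the adaptor Crkl (0.69) were higher, and the adenosine deaminase Ada (-0.66) was lower. Tgfb2 was also called lower (-1.12), but was well above background on 4 of 8 arrays of BAM and 3 of 8 of seeded BAM. The mural gene Heyl, the adipocyte gene Ucp1 and the PDGF chain gene Pdgfb passed both thresholds while well above background on 0 of 8 arrays in either graft, and no difference is given for them.

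At 180 days 0 of the 10 markers were called, where 2.44% of all probes were, and 0 genes of the 15 other lists were called. Eng came nearest, with levels from -1.15 to -0.65 (median -0.80) in BAM and from -0.82 to 0.02 (median -0.45) in seeded BAM. The 2 groups overlapped between -0.82 and -0.65. The difference of 0.43, with an interval from 0.053 to 0.81, had an adjusted p of 0.246 by limma. The endothelial list had a median of 0.39 with 0 calls. For the other 9 markers the difference lay between -0.25 and 0.22. In the days after 7, groups that did not overlap were found for 0 of the 10 markers, against 1.93%, 3.17% and 1.99% of all probes at 30, 90 and 180 days.

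Whether the difference between the grafts itself changed with time was tested as a contrast of contrasts for the 6 pairs of days. Of the 60 tests of a marker and a pair of days 0 passed, where 0.985%, 5.83% and 8.48% of all probes were called from 7 to 30, 90 and 180 days, 9.99% and 2.51% from 30 to 90 and 180 days, and 9.79% from 90 to 180 days. From 7 to 180 days the difference of Pdgfrb moved by 0.87 (standard error 0.267, limma adjusted p = 0.017) and that of Cd34 by 0.96 (standard error 0.305, limma adjusted p = 0.0223). Pdgfrb passed without BAM replicate 2 or seeded BAM replicate 3 of 7 days or BAM replicate 5 of 180 days (0.98, 0.94 and 0.95), and Cd34 passed without BAM replicate 5 or seeded BAM replicate 3 of 7 days or seeded BAM replicate 5 of 180 days (1.06, 1.07 and 1.07). From 30 to 90 days the difference of Cd44 moved by 0.56 (limma adjusted p = 0.0345). With an unadjusted p in place of the adjusted one, 4 of the 60 tests passed, and the share of all probes passing in this way was not counted. At this number of arrays it was therefore not shown that the lower Cd34 and Pdgfrb of 7 days differed from the later days.

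The second question was how the markers changed with time within a graft. The median change over all probes was -0.055, 0.30 and -0.24 in BAM and 0.27, 0.11 and 0.21 in seeded BAM for the steps from 7 to 30, 30 to 90 and 90 to 180 days, and the changes below are not corrected for it. From 7 to 30 days, 5 of the 10 markers fell in BAM, where 8.65% of all probes were called and 4.21% were lower. Thy1 fell by 0.74 on the log2 scale, from a median of -1.52 (range -2.67 to -1.23) to -2.40 (range -2.68 to -1.97). Eng fell by 0.88, from a median of -0.02 (range -0.55 to 0.51) to -0.86 (range -1.46 to -0.37). For Thy1 and Eng the ranges of the 2 days overlapped.

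Pdgfra fell by 0.84, from a median of 1.87 (range 1.46 to 2.80) to 1.08 (range 0.89 to 1.33), and Mcam by 0.84, from 2.08 (range 1.76 to 2.39) to 1.28 (range 0.86 to 1.49). In both genes every array of 7 days lay above every array of 30 days. The share of all probes whose groups did not overlap was not counted for changes between days. Pdgfrb fell by 0.96, from 1.71 (range 0.84 to 2.23) to 0.58 (range 0.37 to 1.07). The limma adjusted p of the 5 genes lay between 2.50e-06 for Pdgfra and 0.00307 for Mcam. All 5 were also called with each of the alternative scalings, namely normexp correction, quantile normalization and a percentile over detected probes. They were called from the series matrix too, but its BAM columns of these days hold the same intensities, so it is no separate check here.

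**Figure D3:**
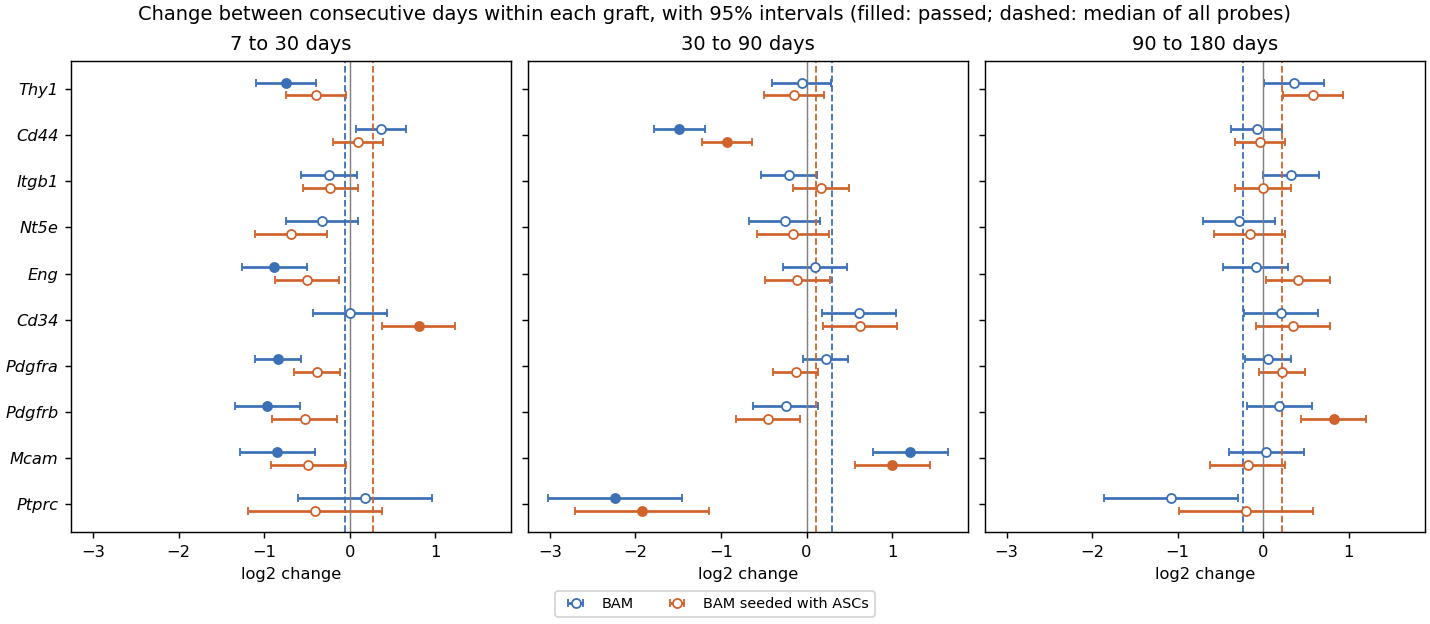
Change in log2 level between consecutive days (x axis) for each marker (y axis) within BAM (blue) and seeded BAM (orange), with 95% confidence intervals. Filled points passed both thresholds and dashed lines are the medians over all probes of the same color. From 7 to 30 days 5 markers of BAM lie to the left, and from 30 to 90 days Cd44 and Ptprc fall and Mcam rises in both grafts.

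Endothelial and mural genes moved in the same step of BAM. Of the 12 endothelial genes 8 fell, with a list median of -0.88, and Kdr (-1.34), Vwf (-1.23) and Esam (-1.13) fell most. Of the 8 mural genes Rgs5 (-1.56), Kcnj8 (-1.12), Higd1b (-1.04) and Cd248 (-0.78) fell. Among the fibroblast genes 5 of 14 fell, with Fap (-1.34) at the front, and Pi16 rose (1.48). The urothelial list had 6 of 12 genes higher at 30 days. Of 10 smooth muscle genes 3 were higher, with a list median of 0.81. The 17 other surface molecules of stromal cells had 0 lower and 3 higher, Alcam, Cd9 and Dpp4, with a list median of 0.22. The part of these cell types in the fall of the 5 markers was not tested.

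In seeded BAM the same step gave 1 call among the 10 markers, where 8.06% of all probes were called. Cd34 rose by 0.80 (limma adjusted p = 0.00457), from a median of -4.25 (range -4.59 to -3.40) at 7 days to -3.43 (range -3.63 to -2.87) at 30 days. In BAM its mean was -3.42 at both days. The rise was not called after normexp correction (0.42) or quantile normalization (0.41). Nor was it called without seeded BAM replicate 1 of 30 days (0.73) or replicate 7 or 8 of 7 days (0.76 and 0.75). From the series matrix it was 0.75 and also not called. There replicates 2 to 4 of seeded BAM at 7 days hold the signal error, so that value is no check of the rise. Thy1, Eng, Pdgfra, Pdgfrb and Mcam changed by -0.40, -0.50, -0.38, -0.53 and -0.49 in seeded BAM, with adjusted p between 0.0281 and 0.0829. The differences between the steps of the 2 grafts lay between 0.35 and 0.46 for these 5 genes, and 0 passed (limma adjusted p between 0.116 and 0.462). Nt5e changed by -0.69 (limma adjusted p = 0.012), and passed after quantile normalization (-1.02), with a percentile over detected probes (-0.75), without dim probes, with the scan dates or the arrays of the step fitted apart, and without seeded BAM replicate 1 of 7 days (-0.78) or replicate 3 of 30 days (-0.75).

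The promoters of the 10 genes were looked up because 5 of them fell together in BAM. RefSeq windows (build GRCr8, 250 bases before to 50 after the start) were at hand for 7 of them. Those of Eng and Pdgfra, which fell in this step, and of Cd34, which was lower in the seeded grafts at 7 days, are shown 5′ to 3′ on the strand of the gene, up to the first annotated base of the gene. Capitals mark a match on either strand to GGGCGG, the GC box, or to CCAAT.

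Eng, chr3:36332029-36332189, plus strand: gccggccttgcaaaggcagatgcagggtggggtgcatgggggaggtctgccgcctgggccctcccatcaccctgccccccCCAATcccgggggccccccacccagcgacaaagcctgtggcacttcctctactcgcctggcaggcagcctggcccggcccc
Pdgfra, chr14:33408605-33408766, minus strand: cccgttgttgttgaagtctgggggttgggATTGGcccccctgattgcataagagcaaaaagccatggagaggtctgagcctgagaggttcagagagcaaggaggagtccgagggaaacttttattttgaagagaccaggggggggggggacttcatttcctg
Cd34, chr13:109008536-109008785, plus strand: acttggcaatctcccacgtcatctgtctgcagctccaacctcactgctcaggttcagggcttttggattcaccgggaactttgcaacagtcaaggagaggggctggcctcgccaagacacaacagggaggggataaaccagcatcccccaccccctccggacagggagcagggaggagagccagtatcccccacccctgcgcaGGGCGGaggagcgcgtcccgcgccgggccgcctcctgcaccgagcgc

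Eng and Pdgfra each held 1 CCAAT and 0 GC boxes in the bases shown, and Cd34 held 1 GC box and 0 CCAAT. Among all 33469 windows of 250 bases before a start, 34% held CCAAT and 30.5% held the GC box. These windows are longer than the 161 and 162 bases of Eng and Pdgfra, so the shares cannot be set against those 2 sequences directly. The heptamer CCGGAAG, a core bound by ETS factors, was found in 0 of the 3 sequences and in 7.27% of all windows. Thy1, Pdgfrb and Mcam had no entry.

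From 30 to 90 days 3 of 10 markers were called in each graft, namely Ptprc, Cd44 and Mcam. Of all probes 44.7% were called in BAM and 28.1% in seeded BAM, so the share of the markers was not above that of all probes in BAM and was close to it in seeded BAM. This step also crosses the scan dates, and the 2 cannot be told apart. Ptprc fell by 2.24 in BAM (limma adjusted p = 1.70e-06), from a median of 2.49 to 0.33, and by 1.92 in seeded BAM (limma adjusted p = 5.28e-05), from 1.57 to 0.00. At 90 days its arrays were widely spread, from -2.34 to 1.90 in BAM and from -3.44 to 0.69 in seeded BAM.

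Cd44 fell by 1.49 in BAM (limma adjusted p = 8.73e-13), from a median of 3.11 to 1.65, and by 0.93 in seeded BAM (limma adjusted p = 6.31e-07), from 2.55 to 1.70. The other 3 probes of Cd44 were also called lower in BAM (-1.21, -0.70 and -1.25), but in seeded BAM 1 of them was called (-1.26) and the others changed by -0.67 and -0.12. Mcam rose by 1.21 in BAM (limma adjusted p = 3.15e-06), from 1.28 (range 0.86 to 1.49) to 2.13 (range 1.67 to 4.00), and by 1.00 in seeded BAM (limma adjusted p = 1.47e-04), from 1.51 (range 0.99 to 1.83) to 2.31 (range 1.92 to 3.11). The ranges of Mcam at 30 and 90 days did not overlap in either graft, and the share of all probes for which this held was not counted. All of these calls were also made with the other scalings named above. Cd34 changed by 0.62 in BAM (limma adjusted p = 0.0108) and 0.63 in seeded BAM (limma adjusted p = 0.013) without passing, and in seeded BAM it passed after normexp correction (0.61), after quantile normalization (0.95), on the arrays of the step alone, and without replicate 1 of 30 days (0.70) or replicate 3 of 90 days (0.69). In BAM it passed without replicate 4, 6 or 7 of 90 days (0.70, 0.66 and 0.69).

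In the same step, 14 of 19 leukocyte genes fell in BAM and 12 in seeded BAM, with medians of -1.28 and -1.19. Itgb2, the beta subunit of the leukocyte integrins, fell by 2.56 and 2.00. In smooth muscle 7 of 10 genes rose in BAM and 9 in seeded BAM, with medians of 0.85 and 1.36, and the actin-binding Tagln rose by 0.82 and 1.93. Of the fibroblast genes 8 fell in BAM and 4 in seeded BAM, with Fn1, Vim, Postn and Fap falling in both (at 90 days Fap was well above background on 2 of 8 arrays of BAM), and Dcn rose in seeded BAM. The mean 75th percentile rose from 1364 to 2454 in BAM and fell from 1460 to 1104 in seeded BAM. The mean number of saturated spots rose from 542.6 to 1088.5 in BAM and fell from 577.9 to 480.6 in seeded BAM. The part of scaling and saturation in the list counts was not tested. The other surface molecules of stromal cells had 5 of 17 lower and 3 higher in BAM and 6 lower and 2 higher in seeded BAM, with Vcam1, Icam1 and Anpep lower in both. Lepr, called higher in both, was well above background on at most 1 of 8 arrays of a group. The part of the cell types in the changes of Ptprc, Cd44 and Mcam was not tested.

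From 90 to 180 days 0 markers were called in BAM, where 9.39% of all probes were, and 1 in seeded BAM, where 4.14% were. Pdgfrb rose in seeded BAM by 0.82 (limma adjusted p = 0.00135), from a median of 0.13 (range -1.49 to 0.33) to 0.89 (range 0.37 to 1.09), with every array of 180 days above every array of 90 days. How many of all probes were separated in this way was not counted. The rise of Pdgfrb was called with each scaling, but not when the arrays of 90 and 180 days were fitted apart from the earlier ones (limma adjusted p = 0.0138) or alone (limma adjusted p = 0.0174). In this step 5 of 12 endothelial genes rose in seeded BAM, among them Cldn5 (0.75), Erg (0.69) and Vwf (0.65), and the mural genes Higd1b (0.69) and Cd248 (0.66) rose. Cldn5 and Erg also rose in BAM (0.95 and 0.59), where Cdh5 was called lower. The median of the endothelial list was 0.06 in BAM and 0.55 in seeded BAM. Thy1 changed by 0.58 in seeded BAM (limma adjusted p = 0.018) and passed without replicate 7 of 90 days (0.67) or replicate 6 of 180 days (0.65). Ptprc changed by -1.08 in BAM (limma adjusted p = 0.0367), and by -1.46 when BAM replicate 5 of 90 days was left out, which passed (limma adjusted p = 0.00137).

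Over the 8 groups, Thy1, Itgb1, Nt5e, Eng, Pdgfra and Pdgfrb had their highest mean in BAM at 7 days, Cd44 and Ptprc in BAM at 30 days, Mcam in BAM at 180 days and Cd34 in seeded BAM at 180 days. The means of the highest and the lowest group differed by 3.32 on the log2 scale in Ptprc, by 1.78 in Cd34, 1.67 in Pdgfrb, 1.56 in Cd44, 1.25 in Mcam and 1.11 in Nt5e. The span was 0.88 in Eng, 0.84 in Pdgfra, 0.81 in Thy1 and 0.48 in Itgb1. When the 8 groups were ordered by mean, each of the 7 pairs of neighbors overlapped in range in all 10 markers.

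Rats of one group differed too, and the markers did not vary together as a set. After subtraction of the group means, Itgb1 and Mcam had the highest correlation over the 64 arrays (Pearson r = 0.64, Spearman rho = 0.57), followed by Cd44 with Ptprc (0.61 and 0.51) and Thy1 with Pdgfrb (0.60 and 0.57). Itgb1 and Ptprc ran in opposite directions (r = -0.53, rho = -0.44), with r = -0.30 on the arrays of 7 and 30 days and -0.62 on the later ones. Mcam and Ptprc had r = -0.45 over all arrays, 0.059 on the arrays of 7 and 30 days, -0.53 on the later ones and -0.23 without the 2 arrays farthest from the median. Within the arrays of 7 and 30 days and within those of 90 and 180 days, r was 0.29 and 0.77 for Itgb1 with Mcam, 0.37 and 0.72 for Cd44 with Ptprc, and 0.81 and 0.47 for Thy1 with Pdgfrb. These values, out of 45 pairs, are given as a description without a test. Arrays of a group share a slide, and all values of an array share its scaling.

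**Figure D4:**
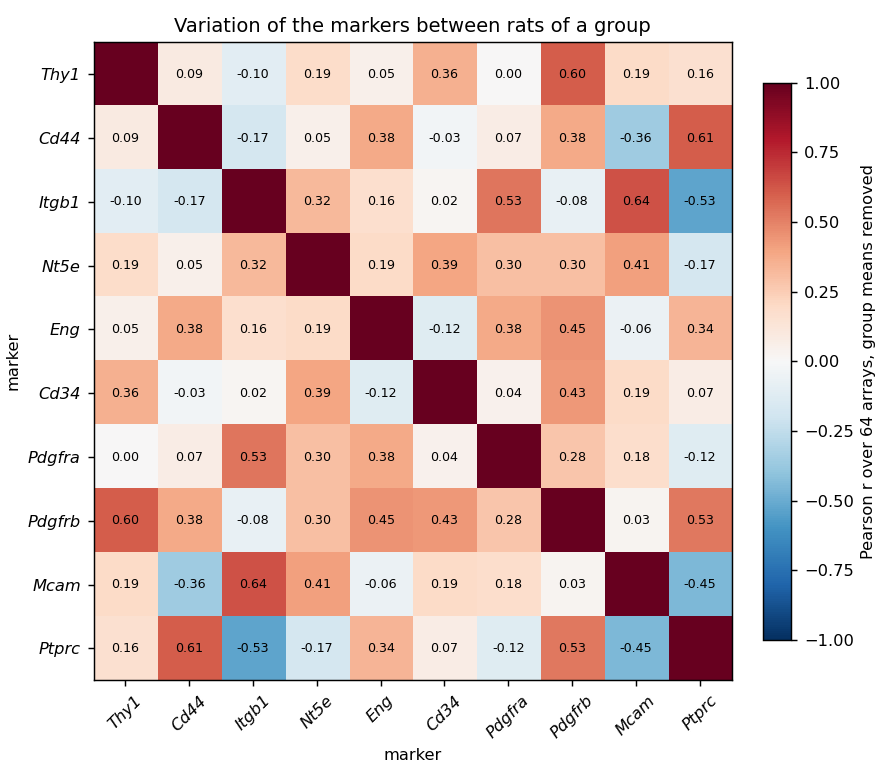
Pearson correlation between the log2 levels of each pair of markers over 64 arrays after subtraction of the group means, with color from -1 (blue) to 1 (red) and r printed in each cell. Itgb1 with Mcam, Cd44 with Ptprc and Thy1 with Pdgfrb have the highest values, 0.60 to 0.64, and Itgb1 with Ptprc has the lowest, -0.53.

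For each marker the genes most alike in this variation were sought among 5218 genes whose brightest probe was well above background on all arrays. Ptprc was followed by Myo1g (Pearson r = 0.95), Hcst (0.94) and Coro1a (0.93), which are expressed in leukocytes. Cd44 was followed by Cd14 (0.80), Ptafr (0.79) and C5ar1 (0.78), receptors of myeloid cells. Itgb1 was closest to the cytoskeletal genes Flnc (0.90), Cald1 (0.89) and Actn1 (0.87), and the median correlation of its brightest probe with the 10 smooth muscle genes was 0.57 and with the 19 leukocyte genes -0.52. Mcam was closest to Adarb1 (0.89), Atl2 (0.87) and Kctd15 (0.85), which had r = 0.54, 0.40 and 0.40 on the arrays of 7 and 30 days and 0.94 each on the later ones. Its median correlation was 0.51 with the smooth muscle genes and -0.42 with the leukocyte genes.

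Pdgfrb was closest to Pear1 (0.85), Spon1 (0.84) and Col15a1 (0.82), and its median correlation was 0.51 with the 12 endothelial genes, 0.41 with the 19 leukocyte genes, 0.40 with the 14 fibroblast genes and 0.38 with the 8 mural genes. Thy1 was closest to C1qtnf5, Col15a1 and Col16a1 (0.61 each), the latter pair being collagens. Pdgfra was closest to Srpx (0.75), Sar1a (0.73) and Hmgn2 (0.72), Cd34 to C13h1orf115 (0.77), Aifm2 (0.65) and Col6a2 (0.64), Eng to Dpagt1 (0.70), Fam50a (0.70) and Akt1 (0.69), and Nt5e to Agpat4 (0.66), Cd302 (0.64) and Agtr1a (0.63). Against the urothelial list the median correlation was negative for 9 of the 10 markers, from -0.45 in Nt5e to -0.075 in Ptprc, and was 0.017 in Cd44.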

How the data were processed

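Total RNA of 64 reconstructed bladders was measured, 1 array each. The authors deposited scanner tables made with Agilent Feature Extraction 12.0.1.1, in which the processed signal is a background-corrected intensity on a linear scale that was not normalized between arrays. Their series matrix equals this intensity in 61 columns wherever it gives a value, and the column of BAM at 180 days, replicate 1, has 24873 spots without one. The columns of replicates 2 to 4 of seeded BAM at 7 days equal the signal error instead.

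Control spots and outlier spots were left out, values were put on the log2 scale, the 75th percentile of each array was subtracted, and spots of a probe were averaged. Groups were taken from graft and day in the labels. RefSeq accessions (assembly GRCr8) named 18758 of 22372 probes with an accession, and the brightest probe stands for a gene. Group means of all 64 arrays entered 1 limma 3.58.1 fit (R 4.3.3, 56 residual degrees of freedom). Its p-values set a difference against the spread between arrays of a group, which are different rats on 1 slide. Differences between slides are not covered by this spread. The fit had no term for the slide. It was tested on simulated data for the grafts at 7 days. Planted shifts of 1 log2 unit were found in 52% of cases, and shifts of 2 units in 83%. At each size 200 of 30367 probes were shifted, while 2347 were called in the data of that day. These shares may therefore not carry over to the data. False calls numbered 1 at either size. An absent call therefore does not show that a marker was unchanged.

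The members and lists were chosen with earlier results of these data known. Named were the 10 markers, up to 3 called genes per list with the largest difference between grafts at each day, and the 3 genes most alike each marker over the 64 arrays. List genes named for a change with time were chosen after their values were seen. Alternatives were other background corrections and scalings, the series matrix, outlier spots kept, dim probes left out, other arrays in the fit, a two-way analysis of variance, other thresholds, the mean of all probes, the replicate number as a block and each array left out. Leaving out the arrays with the lowest and the highest share of spots well above background was added after seeing the data. No slide block was possible.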

Additional observations from a re-analysis of the deposited data

Results flagged for a closer look

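In 12 of 80 groups of 8 arrays, formed by 10 markers and 8 groups, 1 array lay far from the other 7 by Dixon's test. Chance flags about 1 in 20 groups. BAM at 7 days, replicate 2, was the lowest of its group in Thy1 (-2.67) and the highest in Itgb1 (3.49) and Pdgfra (2.80). Seeded BAM at 90 days, replicate 3, was the lowest in Cd44 (0.90), Eng (-2.04), Pdgfrb (-1.49) and Ptprc (-3.44). BAM at 90 days, replicate 5, was the highest in Itgb1 (3.40) and the lowest in Ptprc (-2.34), and replicate 8, which had the lowest share of spots well above background of all arrays (35.5%), was the lowest in Eng (-2.39). Seeded BAM at 90 days, replicate 4, was the lowest in Nt5e (-4.16). Seeded BAM at 30 days, replicate 1, which had the highest share of spots well above background (95.6%), was the highest in Cd34 (-2.87). The part of array quality in these values was not tested. 0 of the 60 tests of a graft difference between days passed.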

How the results depend on the processing

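The count of 2 markers called between grafts at 7 days was 0 after normexp correction, with quantile normalization or a percentile over detected probes, and with a fit on the arrays of the comparison alone or a fold change over 2. It was 1 with the series matrix, in which 3 columns of this day hold another quantity, and 1 with the scan dates fitted apart. It ranged from 0 to 2 without 1 array. At 30 days it was 1 with the scan dates fitted apart (Ptprc) and 0 to 1 without 1 array. The count of graft differences between days, 0 of 60, was 1 on the arrays of the comparison alone (Eng, 7 to 180 days), 4 with an unadjusted p and 0 to 2 without 1 array. The share of all probes called with an unadjusted p was not counted. Calls over the 3 time steps, 8 of 30 in BAM and 5 of 30 in seeded BAM, were 3 and 2 with a fold change over 2. Without 1 array they ranged from 8 to 9 and from 4 to 6. Without BAM replicate 8 of 90 days and seeded BAM replicate 1 of 30 days, the counts were 2, 0, 0 and 0 at the 4 days, and the rise of Cd34 in seeded BAM from 7 to 30 days was no longer called. No counts over all pairs or steps could be had with the scan dates fitted apart.

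Replicate numbers gave no evident pairing of the arrays. On all 64 arrays the number was the position on the slide, so a block by number is also a block by position. Deviations of the 32 same-numbered pairs correlated between -0.28 and 0.33, with 9 pairs above 0.1, and 6 arrays correlated best with their own number. With the number as a block, the count at 7 days was 1, without Cd34 (adjusted p = 0.0113), and the other counts did not change. All probes called moved from 2347 to 2308 at 7 days.

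Uncalled differences changed sign in Mcam (0.025) at 90 and Cd44 (-0.0435) at 180 days with normexp correction. Under quantile normalization this held for Thy1 (-0.031) and Cd34 (-0.21) at 30, Thy1 (0.049), Cd44 (0.039) and Mcam (0.044) at 90, and Cd44 (-0.019) and Pdgfra (-0.0355) at 180 days. A percentile over detected probes gave Thy1 (0.042), Cd44 (0.047) and Mcam (0.038) at 90 and Cd44 (-0.023) and Pdgfra (-0.043) at 180 days. With the mean of all probes, Itgb1 was 0.12 at 7 and 0.038 at 30 days and Cd44 0.26 at 90 days. Without 1 array the range included both signs for Thy1 (-0.10 to 0.085), Cd44 (-0.12 to 0.10), Eng (-0.30 to 0.10), Cd34 (-0.033 to 0.15) and Mcam (-0.12 to 0.21) at 90 days, for Cd34 (-0.030 to 0.077) at 30 days, and for Cd44 (-0.031 to 0.084), Pdgfra (-0.044 to 0.075) and Ptprc (-0.0058 to 0.43) at 180 days. The cause of these changes was not tested. Without dim probes, Nt5e gave no value at 90 and 180 days.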
